A study of Mus musculus with 21 samples.

Results

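Integrins are the receptors by which cells hold on to the extracellular matrix. Each is a pair of an α and a β chain, so the RNA of both chains bears on which receptors a cell can assemble. The 10 genes described here encode integrin subunits that bind matrix proteins: 6 α chains (Itga1, Itga5, Itga7, Itga8, Itga11 and Itgav) and 4 β chains (Itgb1, Itgb3, Itgb5 and Itgb8). They were taken by name, with no measured value in the rule, though with earlier results of these data known, and are 10 of the 53801 gene identifiers in the count tables. All 10 were found once each and passed the filter on low counts in hearts and in cultured fibroblasts.

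Gene expression was measured by RNA sequencing in 15 mouse heart libraries and, apart from them, in 6 libraries of cultured mouse cardiac fibroblasts. The heart libraries were made from tissue labelled border zone, the muscle beside an infarct, at day 7. They fall into 4 groups. FAPI hearts are 4 libraries of wild-type mice with myocardial infarction and FAPI, and FapKO hearts are 4 of FapKO mice with infarction. MI hearts are 4 of wild-type mice with infarction alone, and sham hearts are 3 of wild-type mice after a sham operation. Each library is called a heart below, though the labels do not say that each came from its own animal. FAPI is read as an inhibitor of Fap, fibroblast activation protein, a protease on the surface of activated fibroblasts. FAPI, FapKO and MI hearts all carry the infarct, so sham is the single group without one. Neither the labels nor the series text gives the compound, dose, vehicle, strain, sex, age or kind of knockout allele. Sham hearts have no infarct, and what their border zone tissue corresponds to is not given.

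The cultured cells were ventricular fibroblasts that spent 7 days in a hydrogel of 5% GelMA, which is made from gelatin. In 3 libraries they shared the gel with endothelial cells of heart and lung (co-culture), and in 3 they grew by themselves (3D-culture). Co-cultured fibroblasts were sorted as Pdgfra-positive cells negative for CD45 and CD31, whereas 3D-culture cells were taken straight from the gel, so the effects of the partner cells and of the sort cannot be told apart. The medium in which the fibroblasts were grown held a ROCK inhibitor, and the endothelial cells were grown on fibronectin before the gel. GelMA is itself made from denatured collagen, which carries integrin-binding sequence.

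In background terms, α1β1 and α11β1 are collagen receptors, and α11β1 is known from fibroblasts that contract and remodel scar collagen. Integrin α5β1 is the classical fibronectin receptor, and αv pairs with β1, β3, β5, β6 or β8 to bind matrix proteins that carry the RGD motif, among them vitronectin, fibronectin, osteopontin and latent TGF-β. Integrin α7β1 is the laminin receptor of skeletal and heart muscle cells, where it links the cell to its basement membrane. Several αv receptors release TGF-β from its latent form, which is one reason the family is studied in scar formation.

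Promoters are shown for the gene with the largest fold change after infarction, Itga11, and for Itga5 and Itgb5, the pair for which FAPI and FapKO hearts differed under every alternative setting run. The windows run from 250 bases before to 50 bases after the start of each gene, from RefSeq on build GRCm38.p6, and 8 of the 10 genes had one. Itga7 and Itgb3 had none in the table. Each is written 5′ to 3′ on the strand of the gene, with GC boxes (GGGCGG on either strand, so CCGCCC as printed for the other strand) in capitals.
Itga11 (chr9:62677605-62677904, plus strand): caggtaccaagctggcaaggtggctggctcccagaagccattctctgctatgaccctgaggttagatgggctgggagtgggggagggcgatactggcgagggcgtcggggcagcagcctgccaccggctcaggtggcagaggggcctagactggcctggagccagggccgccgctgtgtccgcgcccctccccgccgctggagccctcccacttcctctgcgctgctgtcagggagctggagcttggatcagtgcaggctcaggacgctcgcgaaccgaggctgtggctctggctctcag
Itgb5 (chr16:33829415-33829714, plus strand): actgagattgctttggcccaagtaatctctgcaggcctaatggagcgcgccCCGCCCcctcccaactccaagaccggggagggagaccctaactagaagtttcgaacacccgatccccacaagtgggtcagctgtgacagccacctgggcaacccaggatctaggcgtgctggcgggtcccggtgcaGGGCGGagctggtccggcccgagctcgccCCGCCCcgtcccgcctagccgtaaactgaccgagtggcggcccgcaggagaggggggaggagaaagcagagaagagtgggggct
Itga5 (chr15:103366742-103367041, minus strand): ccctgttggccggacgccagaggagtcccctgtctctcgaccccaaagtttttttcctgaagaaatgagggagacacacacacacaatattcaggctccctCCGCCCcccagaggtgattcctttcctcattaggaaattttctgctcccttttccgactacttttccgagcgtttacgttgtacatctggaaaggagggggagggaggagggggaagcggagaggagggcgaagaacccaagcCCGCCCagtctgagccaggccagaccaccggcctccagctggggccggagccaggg

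The Itgb5 window held 3 GC boxes and the Itga5 window 2, and the Itga11 window held none. The motif occurs in 35.7% of all 32851 promoter windows of this length. No window of these 3 genes held an AP-1 site (TGANTCA, in 7.81% of all windows), a TEAD site (GGAATG, 14.7%), a SMAD CAGA box (CAGACA, 21%), a TATA box (TATAAA, 13.6%) or a CArG box (1.63%), searched on both strands. The GC content was 68.0% for Itga11, 65.7% for Itgb5 and 58.7% for Itga5, against a median of 52.7% over all windows. These matches describe letters in a window and were not tied to binding of any factor. Of the other 5 windows, that of Itgb1 held a TEAD site, a CAGA box and a GC box, that of Itgb8 a CAGA box and that of Itgav a GC box.

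Heart libraries held 18474138 to 37287355 gene counts, co-culture libraries 4735337 to 6346015 and 3D-culture libraries 12871240 to 15650221. Levels below are CPM, gene counts scaled to a common library size after TMM normalisation, which assumes that most genes do not change. Fold changes are log2 values from edgeR's quasi-likelihood test, and a gene passed where its Benjamini-Hochberg adjusted p over all genes tested was under 0.05. Fap itself averaged 8.26 ± 1.65 CPM in FAPI, 2.16 ± 0.257 in FapKO, 11.2 ± 1.57 in MI and 3.32 ± 0.578 in sham hearts (SD, n = 4, and 3 for sham), lowest in the knockout. Nothing in the labels says that the heart libraries come from separate animals, so p-values reflect sample-to-sample spread, which may be technical. In tissue, fewer cells of a type and less RNA per cell cannot be told apart.

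Measured per kilobase of exon, Itgb1 and Itgb5 were the most abundant of the 10 subunits in every group of hearts. Itgb1, the shared β chain that pairs with most of these α chains, stood at 101 ± 8.11 CPM per kilobase in FAPI, 77.2 ± 6.34 in FapKO, 90.8 ± 15.2 in MI and 56.5 ± 11.4 in sham hearts. Itgb5, a β chain known to pair with αv alone, stood at 33.5 ± 3.49, 24.9 ± 1.35, 54.2 ± 6.63 and 13.9 ± 0.743 CPM per kilobase in the same order of groups. The ranges of the 2 genes did not overlap in any group of hearts. Next in MI hearts came Itga5 (6.81 ± 0.339 CPM per kilobase), followed by Itgav (3.47 ± 0.358), Itga11 (3.43 ± 1.02), Itga7 (2.12 ± 0.628) and Itga1 (1.70 ± 0.0927), where each of these last 4 overlapped its neighbour. Itgb3, Itga8 and Itgb8 closed the order at 0.705 ± 0.101, 0.340 ± 0.108 and 0.287 ± 0.0497 CPM per kilobase in MI hearts. In sham hearts the third place belonged to Itga7 (4.15 ± 0.188 CPM per kilobase), ahead of Itga5 (3.35 ± 0.398) without overlap. The libraries carry molecular barcodes and the part of each transcript that they read is not given, so levels of different genes are comparable only if reads cover the whole transcript.

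**Figure D1:**
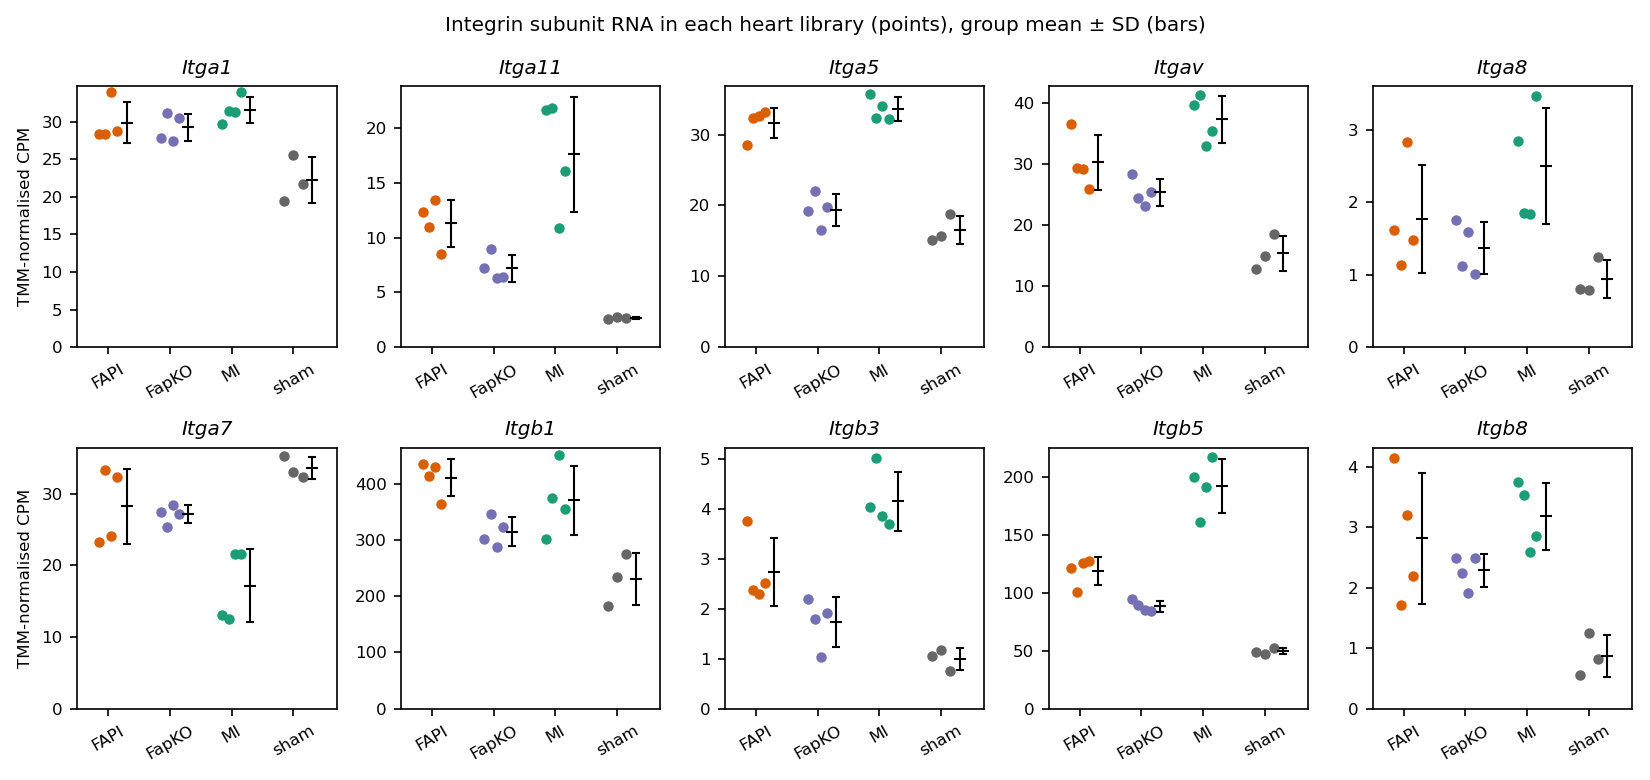
TMM-normalised CPM of the 10 integrin subunits in each heart library, with α chains and then β chains; points are libraries, and bars beside them are the group mean and SD (n = 4, and 3 for sham). Itga5 lies between 16.6 and 22.0 CPM in FapKO hearts and between 28.6 and 33.2 CPM in FAPI hearts, and Itgb5 in FAPI and FapKO hearts lies below MI and above sham hearts without overlap.

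Infarction was accompanied by more RNA of nearly all of these subunits. Compared with sham hearts, 9 of the 10 rose in MI hearts and Itga7, the laminin receptor chain of muscle, fell with TMM normalisation but not with total-count scaling (0.10). The 10 of 10 that passed compare with 69.1% of all 17064 genes tested, and the 9 that rose with 37.1% of all genes, while 32.0% fell. The median log2 fold change was 1.34 over the 10 subunits and 0.14 over all genes. MI and sham libraries did not overlap for any of the 10, as for 67.5% of all genes.

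Among the collagen receptor chains, Itga11 changed most. Itga11 had 21.6, 21.8, 10.9 and 16.1 CPM in the 4 MI hearts, against 2.53, 2.74 and 2.69 CPM in the 3 sham hearts. MI replicate 3, the lowest of the MI hearts, still lay far above the highest sham heart. The log2 fold change was 2.73 (SE 0.253, edgeR adjusted p = 9.24e-08). Itga1, the other collagen-binding α chain, which blood vessels and muscle also carry, had 29.7, 31.4, 31.4 and 33.9 CPM in MI hearts, against 19.5, 25.5 and 21.8 CPM in sham hearts. Its rise was the smallest of the 9, at 0.51 (SE 0.106, edgeR adjusted p = 4.92e-04). Part of the Itga1 exon sequence, 685 bases, is shared with the annotated gene Gm49395 on the same strand, and counts there are uncertain.

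The fibronectin receptor chain Itga5 had 35.8, 32.4, 34.0 and 32.2 CPM in MI hearts, against 15.1, 15.7 and 18.7 CPM in sham hearts. The MI hearts lay close together and well above the sham hearts, a change of 1.03 (SE 0.110, edgeR adjusted p = 4.70e-07). Itgav, the α chain of the RGD receptors, had 39.5, 41.3, 32.9 and 35.3 CPM in MI hearts, against 12.8, 14.8 and 18.5 CPM in sham hearts, a change of 1.28 (SE 0.142, edgeR adjusted p = 6.96e-07). Itga8 pairs with β1 to bind RGD proteins such as nephronectin and is known from mesenchymal cells. It had 2.85, 1.86, 1.84 and 3.47 CPM in MI hearts, against 0.801, 0.784 and 1.24 CPM in sham hearts, where it rested on 12 to 18 counts a library. The rise of Itga8 was 1.40 (SE 0.361, edgeR adjusted p = 0.00253). Exons of Itga8 and Itgav overlap annotated antisense genes by 372 and 634 bases, and the strand setting of the counting is not given in the sources used here.

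Itgb5 had the smallest standard error of the 4 β chains. Itgb5 had 200.2, 161, 191 and 217 CPM in MI hearts, against 48.5, 47.4 and 52.4 CPM in sham hearts. Its change of 1.96 (SE 0.121, edgeR adjusted p = 2.22e-09) stands beside 1.28 for its partner Itgav. Itgb3, the β chain of the vitronectin receptor and of the platelet fibrinogen receptor, had 4.05, 5.03, 3.86 and 3.70 CPM in MI hearts, against 1.05, 1.18 and 0.758 CPM in sham hearts. Sham libraries held 11 to 18 Itgb3 counts each, and the log2 fold change was 2.06 (SE 0.272, edgeR adjusted p = 4.69e-06). Itgb8, which pairs with αv to activate TGF-β, had 3.74, 3.53, 2.58 and 2.85 CPM in MI hearts, against 0.554, 1.24 and 0.827 CPM in sham hearts. Itgb8 rose by 1.87 (SE 0.322, edgeR adjusted p = 7.69e-05) on 9 to 19 counts per sham library. Itgb1 had 302, 375, 451 and 355 CPM in MI hearts, against 183, 234 and 276 CPM in sham hearts, and MI replicate 1 lay close above sham replicate 3. The Itgb1 rise was 0.68 (SE 0.154, edgeR adjusted p = 8.84e-04).

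Itga7 had 13.0, 12.6, 21.5 and 21.6 CPM in MI hearts, against 35.3, 33.1 and 32.4 CPM in sham hearts. MI replicates 1 and 2 held the least, and every MI heart lay below every sham heart. The log2 fold change was −0.97 (SE 0.183, edgeR adjusted p = 1.89e-04), and 0.10 with total-count scaling (adjusted p = 0.530), with adjusted p from 5.63e-07 to 0.530 over 16 alternatives. Over all genes the median was 1.23 with total-count scaling, against 0.14 with TMM, so the fall of Itga7 is one relative to the other genes.

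Other cell types moved with these results. All 21 cardiomyocyte markers fell in MI hearts with TMM normalisation, and their summed level was 15019 to 44010.5 CPM in MI and 129624 to 154150.4 CPM in sham hearts. MI replicate 3 held the 44010.5 CPM, and the other MI hearts 15019 to 21804 CPM. That heart differed from the other MI hearts by a chi-square of 124, 130 and 69.0 per degree of freedom, against 36.8 to 53.4 among the others. All 12 activated fibroblast markers and all 14 macrophage markers rose. Their sums were 3091 to 4926 and 8724 to 12610.1 CPM in MI hearts, against 706 to 873 and 2406 to 2657 CPM in sham hearts. Of 12 endothelial markers 1 rose and 5 fell in MI hearts, and 6 of 12 smooth muscle and pericyte markers rose and 5 fell. Of 12 general fibroblast markers 11 rose and 1 fell, with sums of 14630.3 to 20588 CPM in MI and 4735 to 5159 CPM in sham hearts. None of these markers was at 0 in any group of hearts. Of 9 platelet markers 6 were tested and 3 fell, and 6 of the 9 were under 1 CPM in every MI heart. With cardiomyocyte markers added to the fit as a covariate, Itgb5 alone of the 10 still passed (1.94, edgeR adjusted p = 0.00290), and Itga11 stood at 0.57 (adjusted p = 0.390). In that fit 778 genes were called in place of 11783, and the covariate follows the groups closely, which leaves little to compare within them. The part of fibroblasts and macrophages in these results was not tested.

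**Figure D2:**
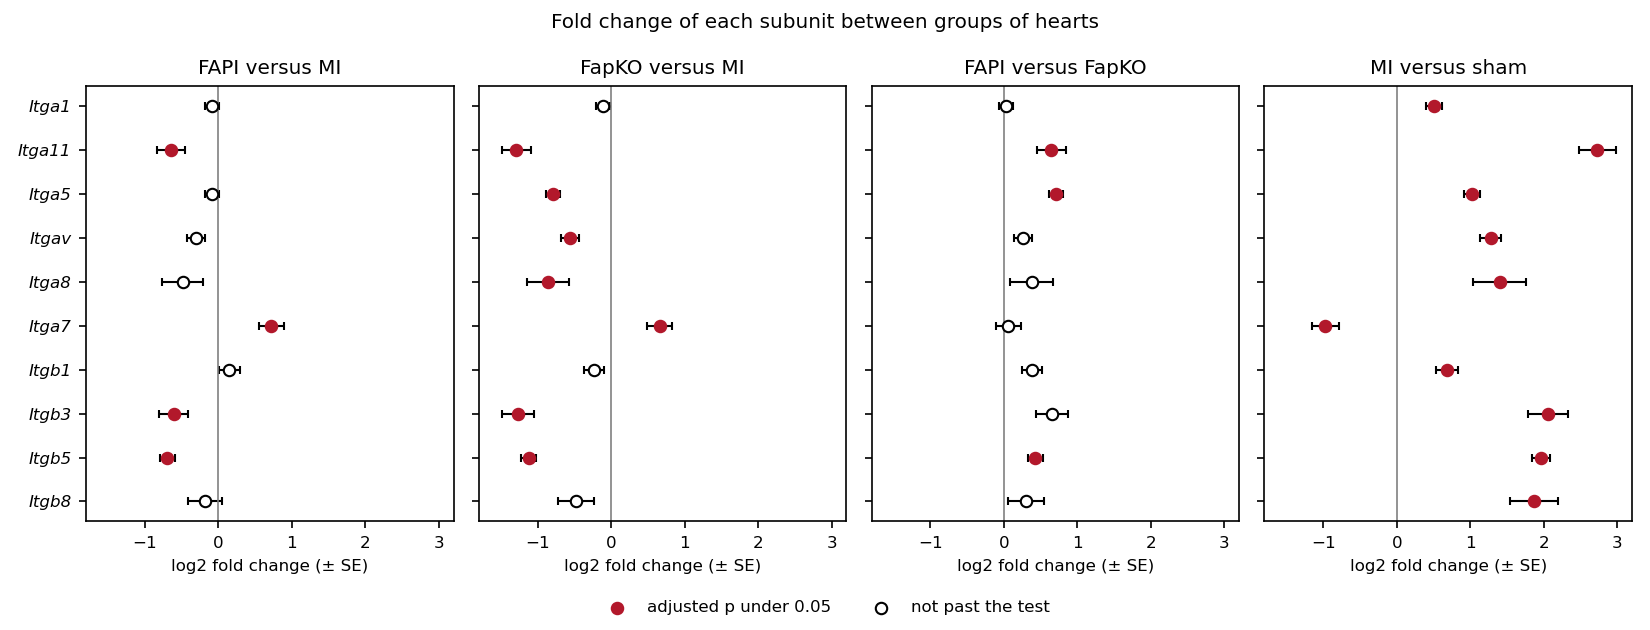
Log2 fold change (± SE, edgeR) of the 10 subunits for FAPI against MI, FapKO against MI, FAPI against FapKO and MI against sham hearts; filled points passed the test and open points did not. After infarction 9 subunits lie right of 0 and Itga7 left of it with TMM normalisation (right of it, at 0.10, with total-count scaling), and in FapKO against MI hearts 6 lie left of 0 past the test.

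FAPI and FapKO hearts were each compared with the same 4 MI hearts, so the comparisons share their controls and their values are given side by side without a measure of overlap. Relative to MI hearts, 4 of the 10 subunits changed in FAPI hearts: Itga11, Itgb3 and Itgb5 fell and Itga7 rose, the last not past the threshold under total-count scaling (0.30) but past it with RLE size factors (0.73) and DESeq2 (0.73). In all 29.8% of genes tested passed in that comparison, 17.9% higher and 11.9% lower. Of the 10 subunits 2 had no overlap between FAPI and MI hearts, as had 26.1% of all genes. In FapKO hearts 7 of the 10 changed, with Itga5, Itga8, Itga11, Itgav, Itgb3 and Itgb5 lower and Itga7 higher, the last again short of the threshold under total-count scaling (0.13) and past it with RLE size factors (0.69) and DESeq2 (0.69). There 51.0% of genes tested passed, 25.0% higher and 26.0% lower. The groups did not overlap for 8 of the 10 subunits and for 45.4% of all genes. The median log2 fold change of the 10 subunits was −0.24 in FAPI and −0.68 in FapKO hearts, against −0.03 and −0.08 over all genes.

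Itgb5 showed the clearest order among the groups. It had 121, 101, 126 and 127 CPM in FAPI hearts and 94.7, 89.4, 84.9 and 84.4 CPM in FapKO hearts, against 161 to 217 CPM in MI hearts. No FAPI heart reached the lowest MI heart, and no FapKO heart reached the lowest FAPI heart. The log2 fold change against MI was −0.69 in FAPI hearts (SE 0.105, edgeR adjusted p = 2.66e-04) and −1.12 in FapKO hearts (SE 0.106, edgeR adjusted p = 7.97e-07).

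Itga5 set FAPI and FapKO hearts apart. It had 28.6, 32.4, 32.7 and 33.2 CPM in FAPI hearts and 19.2, 22.0, 16.6 and 19.7 CPM in FapKO hearts, against 32.2 to 35.8 CPM in MI hearts. FAPI hearts overlapped MI hearts, whereas every FapKO heart lay below both. Itga5 did not pass in FAPI against MI hearts (−0.08, 95% interval −0.27 to 0.11, edgeR adjusted p = 0.543). It fell in FapKO hearts (−0.79, SE 0.0982, edgeR adjusted p = 7.98e-06).

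For the scar collagen receptor chain Itga11, FAPI hearts had 12.3, 11, 13.4 and 8.46 CPM and FapKO hearts 7.26, 8.93, 6.26 and 6.36 CPM, against 10.9 to 21.8 CPM in MI hearts. FAPI hearts overlapped the lowest MI heart, replicate 3, and FapKO hearts lay below all MI hearts. The fall was −0.64 in FAPI hearts (SE 0.191, edgeR adjusted p = 0.0188) and −1.29 in FapKO hearts (SE 0.197, edgeR adjusted p = 5.54e-05). Without MI replicate 1, MI replicate 2 or FAPI replicate 4, Itga11 no longer passed in FAPI hearts (−0.53, −0.52 and −0.53).

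Itgb3 had 3.76, 2.37, 2.30 and 2.51 CPM in FAPI hearts and 2.19, 1.81, 1.03 and 1.91 CPM in FapKO hearts, against 3.70 to 5.03 CPM in MI hearts. FAPI replicate 1 lay among the MI hearts and the other FAPI hearts below them, and all FapKO hearts lay lower than all FAPI hearts. The fall was −0.61 in FAPI hearts (SE 0.203, edgeR adjusted p = 0.0327) and −1.27 in FapKO hearts (SE 0.213, edgeR adjusted p = 1.31e-04). The call in FAPI hearts was lost without MI replicate 1 or 2 or FAPI replicate 2, 3 or 4 (−0.62, −0.50, −0.56, −0.53 and −0.57), and adjusted p ran from 0.00279 to 0.993 over 17 alternatives.

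Itgav, which is the α partner of both β chains, had 36.5, 29.3, 29.2 and 25.9 CPM in FAPI hearts and 28.3, 24.4, 23.1 and 25.3 CPM in FapKO hearts, against 32.9 to 41.3 CPM in MI hearts. It fell in FapKO hearts (−0.56, SE 0.125, edgeR adjusted p = 0.00137), and FAPI hearts did not pass at −0.30 (95% interval −0.55 to −0.06, edgeR adjusted p = 0.0764) unless MI replicate 3 (−0.36) or FAPI replicate 1 (−0.41) was left out. Itga8 had 1.62, 1.13, 2.84 and 1.47 CPM in FAPI hearts and 1.76, 1.12, 1.58 and 1.01 CPM in FapKO hearts, against 1.84 to 3.47 CPM in MI hearts. FAPI replicate 3 was the highest FAPI heart, and without it Itga8 passed in FAPI hearts (−0.81), where it had not with all 4 (−0.48, edgeR adjusted p = 0.207). The fall of Itga8 in FapKO hearts (−0.86, SE 0.290, edgeR adjusted p = 0.0205) was not past the test without MI replicate 1 or 4 (−0.79 and −0.67) or FapKO replicate 2 or 4 (−0.77 and −0.74).

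Itga7 of the muscle laminin receptor had 23.2, 33.3, 24.1 and 32.3 CPM in FAPI hearts and 27.5, 25.4, 28.5 and 27.1 CPM in FapKO hearts, against 12.6 to 21.6 CPM in MI hearts. Every FAPI and FapKO heart lay above every MI heart with TMM normalisation. Its log2 fold change was 0.72 in FAPI hearts (SE 0.170, edgeR adjusted p = 0.00495) and 0.66 in FapKO hearts (SE 0.171, edgeR adjusted p = 0.00402), and 0.30 and 0.13 with total-count scaling (adjusted p = 0.0686 and 0.403, in a range of 9.29e-05 to 0.987 over 17 alternatives and 1.82e-04 to 0.683 over 17 alternatives).

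Itga1, Itgb1 and Itgb8 did not pass in either comparison. Itga1 had 28.3, 28.4, 34.0 and 28.8 CPM in FAPI hearts and 27.9, 31.1, 27.5 and 30.5 CPM in FapKO hearts, against 29.7 to 33.9 CPM in MI hearts, and the 95% interval of its log2 fold change was −0.27 to 0.11 and −0.30 to 0.08. Itgb1 had 436, 414, 430.2 and 363 CPM in FAPI hearts and 301, 347, 288 and 323 CPM in FapKO hearts, against 302 to 451 CPM in MI hearts. Its differences were 0.15 in FAPI hearts, turning to −0.25 with total-count scaling, and −0.24 in FapKO hearts (edgeR adjusted p = 0.452 and 0.173). Itgb8 had 4.13, 1.72, 3.2 and 2.19 CPM in FAPI hearts and 2.49, 2.25, 1.92 and 2.50 CPM in FapKO hearts, against 2.58 to 3.74 CPM in MI hearts. Its differences were −0.18 and −0.48 (edgeR adjusted p = 0.601 and 0.108), and in FapKO hearts it passed where only those 8 hearts were fitted (−0.49) and with total-count scaling (−1.03).

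FAPI and FapKO hearts, 4 each, were also compared directly, with neither set against MI hearts. The filter, scaling and estimate of spread still came from the fit over all 4 groups, MI hearts included. All 10 log2 differences were positive with all 8 hearts, although Itga7 turned negative without FAPI replicate 2 or 4 and Itga1 without FAPI replicate 3. Their median was 0.38, against 0.02 over all genes, and 3 passed: Itga5, Itgb5 and Itga11 were higher in FAPI hearts. The test called 13.2% of all genes here, 7.05% higher in FAPI hearts and 6.12% lower. The difference of Itga5 was 0.71 (SE 0.0982, edgeR adjusted p = 2.46e-04), and that of Itgb5 was 0.43 (SE 0.105, edgeR adjusted p = 0.0140). The groups did not overlap for these 2 genes, nor for 18.6% of all genes. Both passed in all 17 alternatives, including the one with the cardiomyocyte covariate (0.70 and 0.43), with adjusted p from 2.44e-09 to 0.00212 over 17 alternatives and from 0.00175 to 0.0492 over 17 alternatives.

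Itga11 was higher by 0.65 (SE 0.197, edgeR adjusted p = 0.0404), with FAPI replicate 4 below FapKO replicate 2. It did not pass when any of FAPI replicates 1 to 3 (0.60, 0.65 and 0.55) or FapKO replicates 1, 3 or 4 (0.65, 0.58 and 0.59) was left out, with limma-voom (0.64) or with the cardiomyocyte covariate (0.29), and adjusted p ran from 0.00387 to 0.148 over 17 alternatives. Itgb1 and Itgb3 did not overlap between the groups either but missed the threshold, at 0.38 and 0.66 (edgeR adjusted p = 0.0798 and 0.0552). Both passed with DESeq2 (0.37 and 0.65) and with total-count scaling. Itga1 and Itga7 had the smallest differences, 0.03 (95% interval −0.16 to 0.22) and 0.06 (−0.27 to 0.39).

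Marker levels differed between these groups too. All 21 cardiomyocyte markers were higher in FAPI and in FapKO than in MI hearts, with sums of 51663 to 91301 CPM in FAPI, 75989 to 92467 in FapKO and 15019 to 44010.5 in MI hearts. The highest MI sum was that of MI replicate 3, which stood apart from the other MI hearts. Of 12 activated fibroblast markers, 4 were lower and 1 higher in FAPI hearts, and 11 lower and 1 higher in FapKO hearts, with sums of 2316 to 3825, 1611 to 2038 and 3091 to 4926 CPM in FAPI, FapKO and MI hearts. Of 14 macrophage markers, 10 were lower in FAPI and 14 in FapKO hearts, with sums of 5725 to 9873, 3453 to 6439 and 8724 to 12610.1 CPM in the same order. Between FAPI and FapKO hearts, 7 activated fibroblast markers and 9 macrophage markers were higher in FAPI hearts, and 3 cardiomyocyte markers, 1 general fibroblast marker and 3 endothelial markers were lower. Of 12 general fibroblast markers, 5 were lower in FAPI and 8 lower and 1 higher in FapKO than in MI hearts. Their sums were 7902 to 12714, 7990.5 to 9008 and 14630.3 to 20588 CPM in FAPI, FapKO and MI hearts. FAPI replicate 4 held the 7902 CPM, and the other FAPI hearts 11247 to 12714 CPM. Of 12 endothelial markers, 1 rose and 1 fell in FAPI and 6 rose in FapKO against MI hearts. With the cardiomyocyte covariate none of the 10 subunits passed against MI in either group (edgeR, 27 and 103 genes called in all). Itgb5 then stood at −0.69 in FAPI and −1.11 in FapKO hearts (adjusted p = 0.465 and 0.0540, in ranges of 5.04e-09 to 0.465 over 17 alternatives and 3.70e-23 to 0.0540 over 17 alternatives), close to its values without the covariate. Itga11 turned positive in that fit, at 0.66 and 0.37, and Itga7 negative, at −0.22 and −0.51. Because the covariate follows the groups closely, this fit leaves little to compare within them, whether a value moved or stayed. The part of fibroblasts and macrophages was not tested.

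Both groups were also compared with the 3 sham hearts, which the comparisons share. In FAPI hearts 9 of the 10 were higher and Itga7 did not pass, where 55.8% of all genes passed, 29.2% higher and 26.5% lower. The groups did not overlap for 8 of the 10 and for 57.5% of all genes. In FapKO hearts 7 were higher and Itga5, Itga7 and Itga8 did not pass, where 39.5% of all genes passed, 19.2% higher and 20.3% lower. There 7 of the 10 and 46.8% of all genes did not overlap. Itgb5 was above sham by 1.27 in FAPI hearts (SE 0.118) and by 0.84 in FapKO hearts (SE 0.117). Itga11 was above it by 2.09 (SE 0.252) in FAPI hearts and by 1.44 (SE 0.254) in FapKO hearts. Itga5 was above sham by 0.94 in FAPI hearts (SE 0.110, edgeR adjusted p = 3.70e-06), whereas in FapKO hearts it stood at 0.23 (95% interval 0.02 to 0.45, edgeR adjusted p = 0.101) and passed without sham replicate 3 (0.34) or FapKO replicate 3 (0.30).

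Itgb3 was above sham by 1.45 in FAPI hearts (SE 0.277) and by 0.79 in FapKO hearts (SE 0.286, edgeR adjusted p = 0.0377), the second lost without sham replicate 1, 2 or 3 (0.83, 0.92 and 0.64) or FapKO replicate 1, 2 or 4 (0.66, 0.77 and 0.74) or with limma-voom (0.72). Itgb8 was above sham by 1.69 (SE 0.324) and 1.39 (SE 0.329). The smaller rises were those of Itgav (0.98 and 0.72), Itgb1 (0.83 and 0.45) and Itga1 (0.43 and 0.39) in FAPI and FapKO hearts, each past edgeR's test. In FapKO hearts Itgb1 was not past it without sham replicate 1 or 2 (0.31 and 0.46) or FapKO replicate 2 or 4 (0.40 and 0.44), nor Itga1 without sham replicate 1 (0.31). Itga8 passed in FAPI hearts (0.92, edgeR adjusted p = 0.0423) but not without sham replicate 1 or 2 or FAPI replicate 1 or 3 (0.81, 0.81, 0.96 and 0.59), with RLE size factors (0.86) or with limma-voom (0.85). Itga7 stood at −0.25 in FAPI and −0.31 in FapKO hearts, and at 0.40 and 0.23 with total-count scaling, where FAPI hearts passed. Total-count scaling also brought Itga5 and Itga8 past the test in FapKO hearts (0.77 and 1.07). With the cardiomyocyte covariate, Itga1 (0.35), Itga8 (0.35) and Itgb8 (0.99) lost their calls in FAPI hearts, as did Itgb3 in FapKO hearts (0.62).

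Because integrins work as pairs, the counts of 2 chains were also divided within each library, which needs no scaling between libraries. Of 9 ratios, 5 separated MI from sham hearts without overlap, 0 separated FAPI from MI hearts and 4 separated FapKO from MI hearts, where 67.5%, 26.1% and 45.4% of single genes did. None of the 36 tests of ratios, with the cultures included, passed after Benjamini-Hochberg adjustment over all of them (lowest adjusted p = 0.171, two-sided exact permutation), and 2 of 9, 0 of 9 and 4 of 9 had an unadjusted p under 0.05 in the 3 heart comparisons. With 4 against 3 or 4 hearts, the smallest p these tests can reach is 0.0286. Many of the 36 would have to sit at that floor before any could pass after adjustment. That none passed therefore does not show that the ratios were alike.

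The ratio of Itga7 to Itgb1 was lower in every MI heart than in every sham heart. Its log2 value was −4.46 ± 0.358 in MI hearts and −2.76 ± 0.362 in sham hearts (SD, n = 4 and 3), a difference of −1.70 (exact permutation p = 0.0286). In FapKO hearts it was −3.53 ± 0.185, 0.93 above MI hearts (exact permutation p = 0.0286), and in FAPI hearts −3.88 ± 0.369, 0.59 above MI hearts (exact permutation p = 0.0857). Laminin-receptor α chain RNA was thus lower relative to the shared β chain in MI hearts, whatever scaling is used between libraries. The ratio of Itga11 to Itgb1 was −4.44 ± 0.682 in MI hearts and −6.41 ± 0.251 in sham hearts, a difference of 1.97 (exact permutation p = 0.0571). For Itga5 over Itgb1, FapKO hearts had −4.02 ± 0.0685 and MI hearts −3.45 ± 0.273, a difference of −0.57 without overlap (exact permutation p = 0.0286).

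Among the partners of αv, the ratio of Itgb3 to Itgav was −3.16 ± 0.121 in MI hearts and −3.91 ± 0.548 in sham hearts (exact permutation p = 0.0286), and −3.90 ± 0.376 in FapKO hearts (exact permutation p = 0.0286 against MI hearts). The ratio of Itgb5 to Itgav was 1.81 ± 0.0789 in FapKO hearts and 2.37 ± 0.294 in MI hearts, without overlap (exact permutation p = 0.0286). It was 1.70 ± 0.209 in sham hearts. Itgb8 over Itgav did not separate FAPI or FapKO from MI hearts, at −3.49 ± 0.434, −3.46 ± 0.105 and −3.56 ± 0.118 in FAPI, FapKO and MI hearts (exact permutation p = 0.257 for FapKO against MI). RNA ratios say nothing of how many pairs reach the cell surface.

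**Figure D3:**
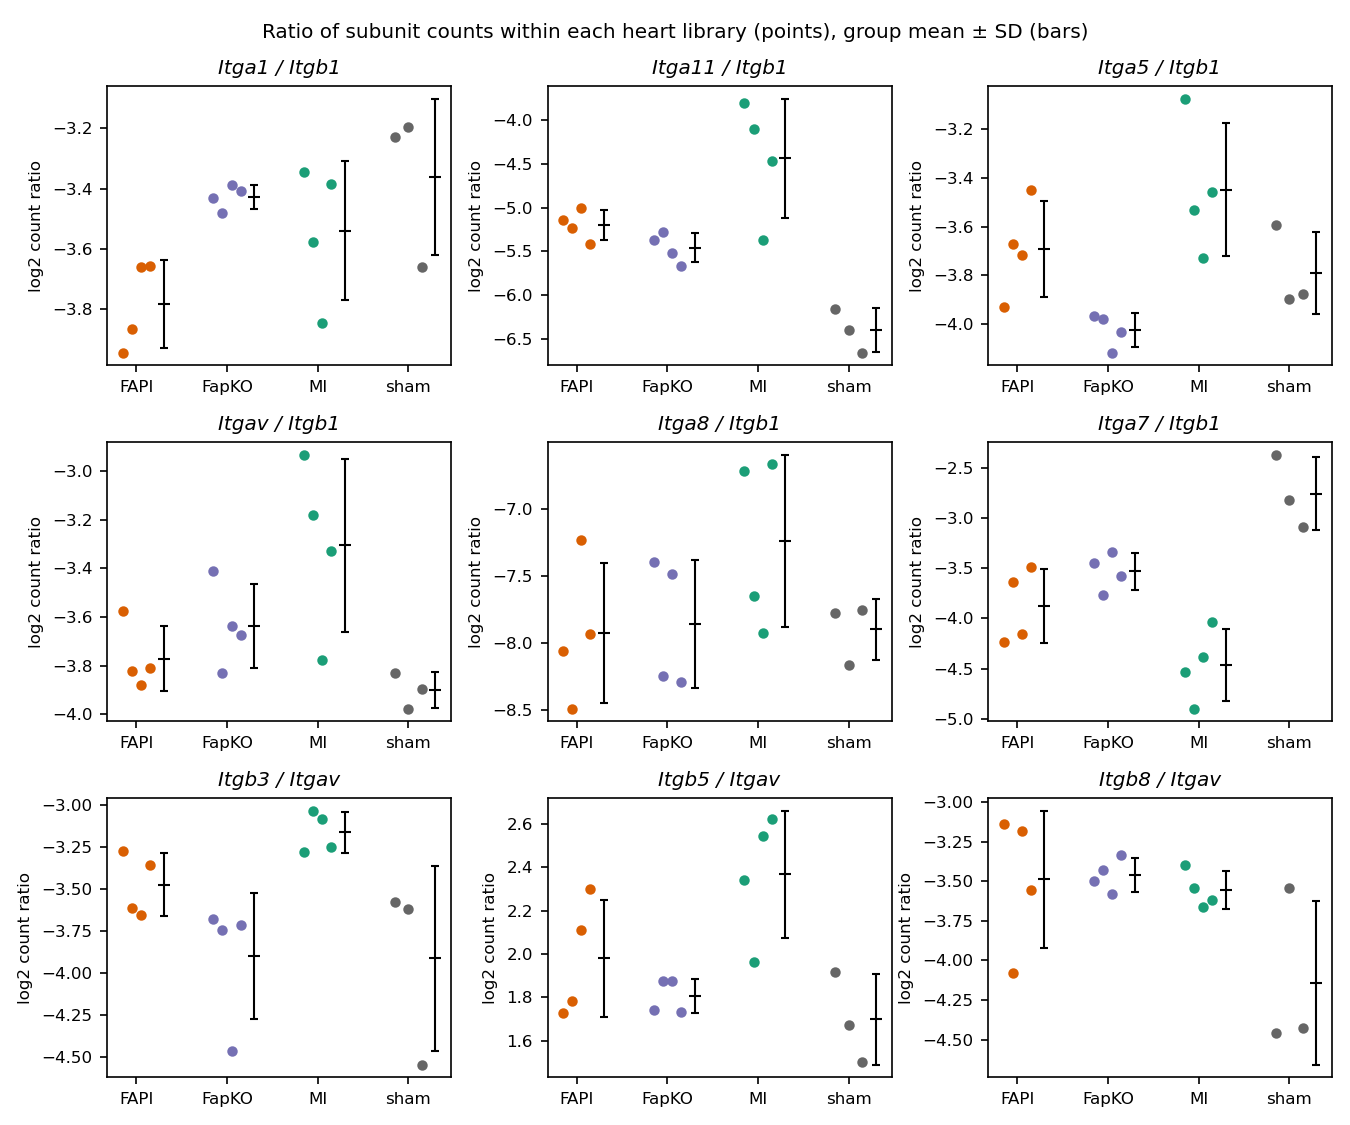
Log2 ratio of the counts of 2 subunits within each heart library (0.5 added to each count), for 6 α chains over Itgb1 and for Itgb3, Itgb5 and Itgb8 over Itgav; points are libraries, and bars are the group mean and SD. Itga7 over Itgb1 averages −4.46 in MI hearts, the lowest of the 4 groups, and −2.76 in sham hearts, the highest, and FapKO hearts lie below MI hearts for Itga5 over Itgb1, Itgb3 over Itgav and Itgb5 over Itgav.

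Integrin genes outside the 10 were counted in the same comparisons. Of 16 other subunits 15 were tested in hearts, and 11 rose and 1 fell in MI against sham hearts (median 1.64; 14 and 1 with total-count scaling, and 2 and 1 with the cardiomyocyte covariate), beside 69.1% of all genes called. Those that rose included Itgb2, the shared β chain of the myeloid integrins (2.17, SE 0.271), Itgb7, a lymphocyte and mast cell β chain (2.15, SE 0.233), and Itga4, the α chain that binds VCAM-1 and fibronectin (1.94, SE 0.222). The one that fell was Itgb6, the epithelial αv partner (−2.95, SE 0.228), at 0.607 ± 0.201 CPM in MI and 4.79 ± 0.344 CPM in sham hearts. In FAPI against MI hearts 1 of the 15 rose (Itgb6, 1.03) and 3 fell (Itga4, Itgb7 and Itgb4), against 9, each of them lower, with total-count scaling. This share of 26.7% lies below the 29.8% of all genes called there. Without FAPI replicate 2 or 4, 2 of the 15 passed there. Itgb7 (−0.61 to −0.41 over the libraries left out) was not past the test without MI replicate 1, 3 or 4 or FAPI replicate 1, 2 or 4, nor Itgb4 (−0.68 to −0.39) without MI replicate 2 or 4 or FAPI replicate 2, 3 or 4. In FapKO against MI hearts 1 rose (Itgb6, 1.30) and 8 fell (1 and 13 with total-count scaling; 51.0% of all genes called), led by Itgb7 (−1.34, SE 0.180), Itga4 (−1.15, SE 0.176) and Itgb2 (−1.26, SE 0.227). Between FAPI and FapKO hearts, Itgb7 (0.86), Itgb2 (0.88) and Itgax, of the complement receptor family (1.18), were higher in FAPI hearts, where 1 passed without FAPI or FapKO replicate 3 and 5 without FAPI replicate 4. Itgb2 (0.62 to 1.02 over the libraries left out) was not past the test in those first fits, nor was Itgax (0.69 to 1.37) without FAPI replicate 3 or any FapKO heart. With the cardiomyocyte covariate, 0 of the 15 passed in edgeR's test in FAPI or FapKO against MI hearts (1 and 3 at an unadjusted p under 0.05), and 1 passed between FAPI and FapKO hearts, where 13.2% of all genes were called without it. Macrophage markers, by the sums given above, moved in the direction of the median of the 15 in each of these comparisons. They moved against Itgb6 in MI against sham hearts and in FAPI and FapKO against MI hearts. The part of macrophages was not tested.

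RNA of the proteins that these integrins bind changed as well. Of 22 ligand genes 19 rose and 3 fell in MI against sham hearts (median 2.02, and 3 rose with the cardiomyocyte covariate, median 0.61), beside 69.1% of all genes called. Those that rose included Col3a1, a fibrillar collagen (2.62, SE 0.172), Postn, the matricellular αv ligand periostin (2.69, SE 0.209), and Fbn1, a microfibril protein (2.24, SE 0.137). In FAPI against MI hearts 2 rose and 5 fell (17, each of them lower, with total-count scaling, and 1 and 3 without MI replicate 2 or FAPI replicate 4), among them Lama2, the laminin chain around muscle fibres (0.51, SE 0.122), which rose with TMM normalisation, and Col1a2 (−0.80, SE 0.191) and Col1a1 (−0.89, SE 0.243), the chains of type I collagen, which fell. In FapKO against MI hearts 2 rose and 16 fell. Fn1, the fibronectin bound by α5β1, was among those that fell in FapKO hearts (−1.33, SE 0.195), as were Thbs1, the TGF-β-binding thrombospondin (−1.73, SE 0.221), and Ccn2, connective tissue growth factor (−1.17, SE 0.159), and vitronectin (Vtn) rose (0.95, SE 0.139). Direct comparison found 9 ligand genes higher and 1 lower in FAPI than in FapKO hearts, led by Ccn2 (0.91, SE 0.158), Thbs1 (1.21, SE 0.219) and Postn (0.91, SE 0.176), and 6 were higher without FapKO replicate 3. With the cardiomyocyte covariate, 0 of the 22 passed in edgeR's test in FAPI (6 at an unadjusted p under 0.05) and 1, which was lower, in FapKO against MI hearts, and 6 between FAPI and FapKO hearts. Of all genes, 29.8%, 51.0% and 13.2% were called in these 3 comparisons without it. The activated fibroblast list shares Postn and Tnc with the ligand list. The general fibroblast list shares Col1a1, Col1a2 and Col3a1 with it, and the smooth muscle and pericyte list shares Vtn. Those collagens averaged 4900, 5061 and 3104 CPM in MI hearts, where general fibroblast markers summed to a mean of 16642 CPM.

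Inside the cell, 31 of 33 genes of the adhesion complex, the proteins that tie integrins to actin and signalling, were tested. In MI against sham hearts 16 rose and 8 fell (median 0.50), against 29 and 2 with total-count scaling, and 2 rose with the cardiomyocyte covariate. Of all genes 69.1% were called. The actin crosslinkers Actn1 (2.12, SE 0.173) and Flna (1.81, SE 0.149) and the adhesion kinase Ptk2b (2.20, SE 0.198) rose, and Itgb1bp2, the muscle-restricted β1-binding protein melusin (−2.90, SE 0.267), fell. Itgb1bp2 rose in FAPI (1.70, SE 0.247) and FapKO hearts (2.07, SE 0.250) against MI, where 7 and 8 of the 31 rose and 11 and 13 fell. With total-count scaling 1 and 2 rose and 19 and 25 fell, and in FAPI hearts 5 rose and 6 fell without MI replicate 1 or FAPI replicate 4. Flna (−0.61 and −0.97) and Fermt3, the kindlin of blood cells (−0.89 and −1.40), fell in both. With the cardiomyocyte covariate 0 of the 31 passed in edgeR's test in either comparison (4 in each at an unadjusted p under 0.05), where 29.8% and 51.0% of all genes were called without it. In FAPI against FapKO hearts 6 were higher (2 with the covariate, and 13.2% of all genes called without it), led by the parvins Parvg (0.91, SE 0.206) and Parva (0.31, SE 0.0870) and by Actn1 (0.51, SE 0.146). The 6 became 3 without FAPI replicate 2, 2 without FapKO replicate 1 or 4, and 1 without FAPI replicate 1, FAPI replicate 3 or FapKO replicate 3. Parva (0.26 to 0.37 over the libraries left out) lost its call without FAPI replicates 1 to 3 or FapKO replicate 1 or 3, and Actn1 (0.39 to 0.59) without FAPI replicates 1 to 3 or FapKO replicate 3 or 4.

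Profiles over the 15 hearts were compared by the root mean square difference on the log2 scale after each gene's mean was removed, a measure that is small for any pair of genes that vary little. The subunits' own deviations from their means ran from 0.208 for Itga1 to 0.906 for Itga11. Itgav and Itgb8 differed by 0.245, with own deviations of 0.466 and 0.586, and Itga5 and Itgav by 0.262, with 0.440 for Itga5. Itga1 and Itgb1 differed by 0.223, more than the own deviation of Itga1, so a gene that did not vary would lie nearer to it. Itga7 and Itga11 were the farthest apart of the 10, at 1.28. Over the 6836 genes that averaged at least 10 CPM, the nearest genes by the same measure were Olfml2b (0.141) and Fbln5 (0.158) for Itga11, H2-DMb1 (0.165) and Arrb2 (0.168) for Itgb5, and Eif1a (0.125) and Msn (0.128) for Itga5. For Itga7 they were Enpp4 (0.145) and Mast2 (0.160), for Itgav Cand1 (0.107) and Gfpt1 (0.110), for Itga1 Thoc2 (0.0894) and Mysm1 (0.103), and for Itgb1 Ap3b1 (0.108) and Mast4 (0.121). The weakly expressed Itgb3 (Entpd1 (0.210) and Flna (0.213)), Itga8 (Rin2 (0.218) and Gsdmd (0.230)) and Itgb8 (Mmgt2 (0.202) and Tanc2 (0.217)) had less close neighbours. With total-count scaling 14 of the 20 nearest genes were the same. All profiles share the 15 libraries and their 4 groups.

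In cultured fibroblasts, 1 library stood apart before any result: 3D-culture replicate 2 differed from the other 2 by a chi-square of 198 and 178 per degree of freedom, against 10.7 between replicates 1 and 3. Fibroblast markers summed to 12638 to 13702 CPM in co-culture, and to 12915 CPM in 3D-culture replicate 2, against 5667 and 6083 CPM in 3D-culture replicates 1 and 3. Values without it are given beside the results. Per kilobase, the order began with Itgb1, Itgb5, Itga5 and Itgav in both cultures. Itgb1 stood at 87.9 ± 2.25 CPM per kilobase in co-culture and 141 ± 8.69 in 3D-culture, and Itga5, the fibronectin receptor chain, at 12.9 ± 1.60 and 11.1 ± 1.48. Itga7 had 5 to 8 counts in each co-culture library, and Itgb8 4 to 8.

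Co-cultured and lone fibroblasts differed in both α and β chains. Compared with 3D-culture, Itga8, Itgb3 and Itgb5 were higher and Itgav, Itgb1 and Itgb8 lower in co-culture, and 4 subunits did not pass. Without 3D-culture replicate 2, 4 were higher and 3 lower. The 6 of 10 that passed is close to the 59.8% of all 12293 genes tested (30.3% higher and 29.5% lower), and the median was −0.10 against −0.06 over all genes.

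Itga8 had the largest change of the 10. It stood at 9.70, 9.17 and 7.68 CPM in co-culture, against 1.89, 1.67 and 1.23 CPM in 3D-culture, with 40 to 44 and 21 to 32 counts a library. All co-culture libraries lay far above all 3D-culture libraries, a change of 2.46 (SE 0.246, edgeR adjusted p = 4.65e-05, and 2.47 without 3D-culture replicate 2). Itgb3 had 3.64, 6.04 and 3.32 CPM in co-culture, against 1.30, 1.75 and 1.07 CPM in 3D-culture, on 15 to 27 and 20 to 22 counts a library. Its log2 fold change was 1.66 (SE 0.337, edgeR adjusted p = 0.00262, and 1.82 without that library). Itgb5 had 117, 113 and 124 CPM in co-culture, against 57.6, 92.1 and 64.1 CPM in 3D-culture, and 3D-culture replicate 2 was the nearest to co-culture. The rise of Itgb5 was 0.73 (SE 0.173, edgeR adjusted p = 0.00597, and 0.93 without that library).

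Itgb1 had 354, 369 and 352 CPM in co-culture, against 578, 542 and 613 CPM in 3D-culture, with little spread in either group. The shared β chain was lower by a change of −0.69 (SE 0.100, edgeR adjusted p = 4.13e-04, and −0.75 without 3D-culture replicate 2). Itgb8 had 1.70, 0.894 and 1.40 CPM in co-culture, against 3.01, 3.66 and 2.90 CPM in 3D-culture (−1.25, SE 0.320, edgeR adjusted p = 0.00843, and −1.17 without that library). Itgav had 80.5, 48.7 and 53.3 CPM in co-culture, against 72.9, 186 and 86.7 CPM in 3D-culture. Its groups overlapped, and 3D-culture replicate 2 held more than any other library. The log2 fold change of Itgav was −0.92 (SE 0.346, edgeR adjusted p = 0.0442) and −0.42 without that library (adjusted p = 0.0357), and the call was lost without co-culture replicate 2 or 3 (−0.79 and −0.84) or with limma-voom (−0.83), with adjusted p from 1.80e-09 to 0.144 over 13 alternatives.

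The collagen receptor chains did not pass. Itga11 had 2.67, 3.58 and 3.49 CPM in co-culture, against 3.42, 4.86 and 2.58 CPM in 3D-culture (−0.13, 95% interval −0.74 to 0.48, and 0.11 without 3D-culture replicate 2), and Itga1 7.27, 8.50 and 6.64 CPM, against 7.67, 6.21 and 9.50 CPM (−0.07, 95% interval −0.50 to 0.35, and −0.23). Itga5 had 57.0, 62.1 and 72.5 CPM in co-culture, against 48.4, 62.8 and 53.5 CPM in 3D-culture, and its difference of 0.22 (95% interval −0.06 to 0.50, edgeR adjusted p = 0.208) was −0.11 with total-count scaling and passed without 3D-culture replicate 2 (0.31, adjusted p = 0.0414, in a range of 0.0414 to 0.633 over 13 alternatives). Itga7 had 1.21, 1.34 and 1.40 CPM in co-culture, against 1.59, 1.43 and 1.88 CPM in 3D-culture (−0.31, 95% interval −0.93 to 0.31, and −0.41 without that library), a difference not detectable at this depth.

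**Figure D4:**
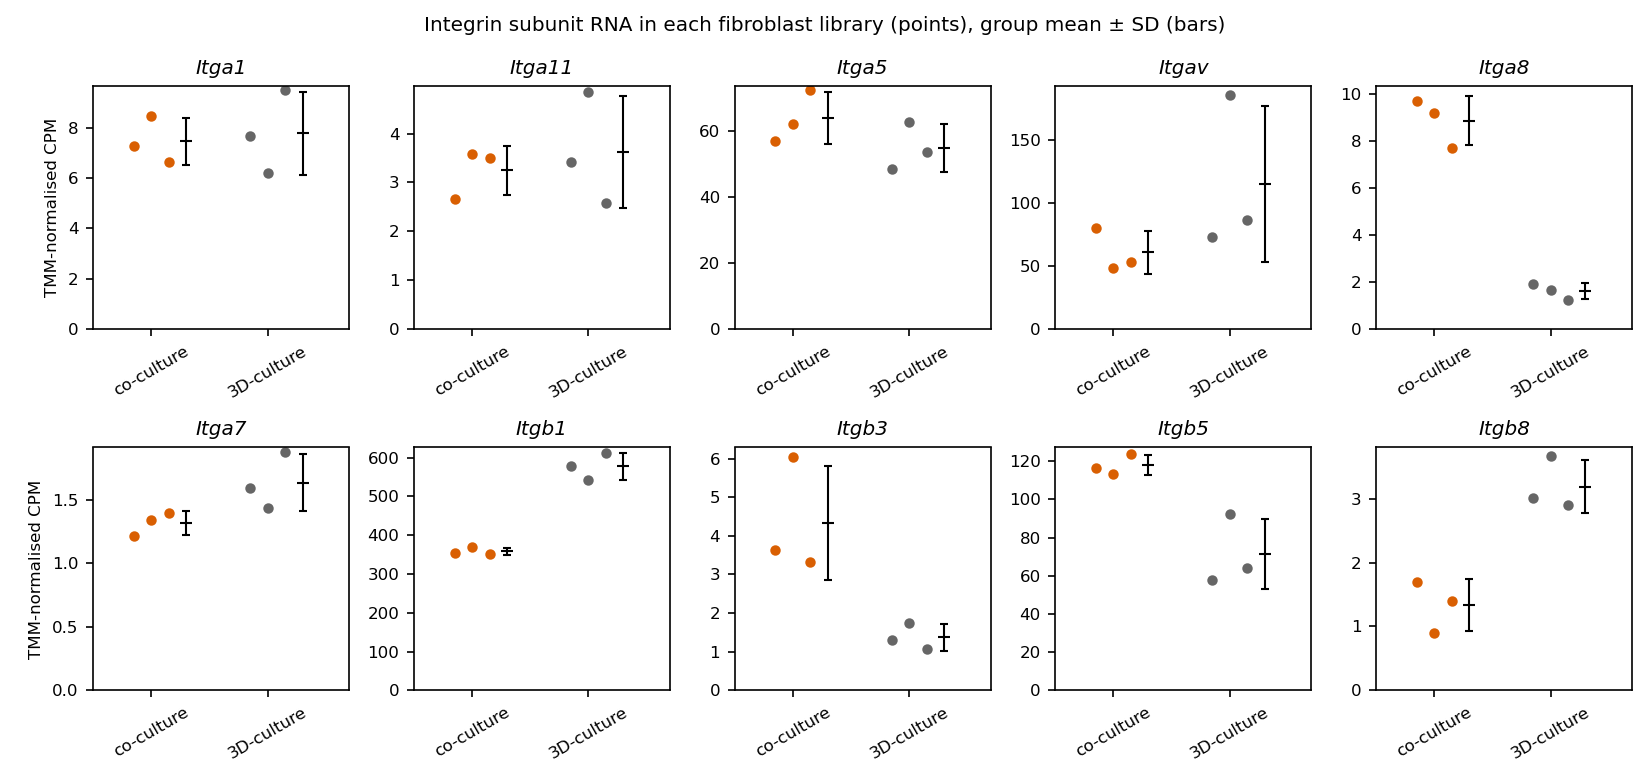
TMM-normalised CPM of the 10 integrin subunits in each fibroblast library, co-culture left of 3D-culture; points are libraries, and bars beside them are the group mean and SD (n = 3 each). Itga8 lies between 7.68 and 9.70 CPM in co-culture and between 1.23 and 1.89 CPM in 3D-culture, and a single 3D-culture library stands out for Itgav at 186 CPM.

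Within each culture library, 6 of 9 ratios of subunits separated the groups without overlap, as did 67.0% of single genes, among them Itgb5 over Itgav (0.99 ± 0.393 in co-culture and −0.60 ± 0.366 in 3D-culture on the log2 scale, SD, n = 3) and Itga5 over Itgb1 (−2.49 ± 0.188 and −3.40 ± 0.254). Their differences were 1.58 and 0.91, and 1.37 and 1.05 without 3D-culture replicate 2. With 3 against 3 libraries the exact permutation p cannot go below 0.1. Of the other integrin subunits 6 were tested, and Itga2b, known as the platelet integrin α chain (1.76, SE 0.240), and Itgb4 (1.56, SE 0.292) were higher in co-culture, while 3 were lower, Itgb2 (−1.19, SE 0.253) and Itga4 (−1.18, SE 0.253) among them. The 5 of 6 called, like the 11 of 21 ligand and 15 of 28 adhesion genes that follow, stand beside 59.8% of all genes. Of 9 platelet markers, 6 were at 0 in every co-culture library and 8 were under 1 CPM, all but Pf4. The 9 together still summed to 49.2 to 50.5 CPM in co-culture and 37.9 to 50.9 CPM in 3D-culture. The part of platelets was not tested. Ligand genes were lower in 10 of 21 and higher in 1, Mfge8, an αv ligand (1.78, SE 0.105), with Postn (−1.34, SE 0.115), Tnc (−1.86, SE 0.168) and Fn1 (−0.99, SE 0.114) among the lower ones. Of 28 adhesion complex genes 11 were lower and 4 higher, such as Ptk2, focal adhesion kinase (−1.50, SE 0.122), Tln2, a talin (−2.22, SE 0.186), and Fermt2, the kindlin of fibroblasts (−1.18, SE 0.112), which were lower, and Tns2, a tensin (1.72, SE 0.134), which was higher. Without 3D-culture replicate 2, 2 other integrin subunits were higher and 2 lower of 5 tested, 3 ligand genes higher and 10 lower of 20, and 5 adhesion complex genes higher and 12 lower of 28.

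Markers of other cells differed between the cultures. Macrophage markers summed to 423 to 549 CPM in co-culture and 976 to 1536 CPM in 3D-culture, and 12 of 14 were lower in co-culture. The leukocyte gene Ptprc, whose product CD45 was used in the sort, averaged 0.585 ± 0.421 CPM in co-culture and 3.06 ± 0.567 CPM in 3D-culture (SD, n = 3), and the endothelial gene Cdh5 0.214 ± 0.0350 and 0.465 ± 0.103 CPM. Pdgfra, the positive marker of the sort, averaged 104.7 ± 8.36 CPM in co-culture and 34.4 ± 5.55 CPM in 3D-culture. Pecam1, the gene of CD31, averaged 0.382 ± 0.354 and 1.05 ± 0.128 CPM. Of 12 endothelial markers 7 were under 1 CPM in every co-culture library and 6 in every 3D-culture library. Unlike Cdh5, the sum of the 12 was higher in co-culture, at 338 to 385 CPM against 179 to 198 CPM in 3D-culture. Of the 6 tested, 2 were higher in co-culture and 0 lower. Activated fibroblast markers summed to 1622 to 1797 CPM in co-culture and 3239.7 to 4081 CPM in 3D-culture. Of 11 tested, 7 were lower in co-culture and 2 higher. Unlike that sum, Fap, a gene of the same list, was higher in co-culture. It had 2.62 to 3.58 CPM there and 1.34 to 1.89 CPM in 3D-culture, on at most 16 and 32 counts a library. Of 12 general fibroblast markers, 6 were higher in co-culture and 1 lower. Of all genes 59.8% were called, beside 33.3% of the endothelial and 58.3% of the general fibroblast markers tested. The part of these markers in the differences of the integrin subunits was not tested.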

How the data were processed

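Gene expression was measured in 15 heart and 6 culture libraries, from total RNA of hearts and polyA RNA of cultures, by Smart-seq2 modified to carry molecular barcodes, per the labels' protocols. The authors' deposited files hold whole-number read counts per gene for each library. STAR, HTSeq and build mm10 are named in the submitters' processing notes, without versions; the strand setting of the counting is not given in the sources used here. The names of the culture files alone carry a mark of duplicate removal, and hearts and cultures were never tested against each other. Each file listed 53801 identifiers, of which 53620 matched a symbol, and 0 entries named no gene. A table of the whole series held 6 per-sample columns that matched no sample, and these were not used.

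Counts were filtered with filterByExpr, normalised with TMM and tested with edgeR 4.0.16 (quasi-likelihood, all 4 heart groups in 1 fit, the cultures in another; R 4.3.3), with Benjamini-Hochberg adjustment over 17064 genes in hearts and 12293 in cultures and a threshold of 0.05. The procedure was tested on simulated data of 2 groups at a time, in which few genes were changed. For MI against sham, 80, 63 and 57 of 16352 genes were changed 1.5-, 2- and 4-fold. It recovered 12.5% of 1.5-fold changes for MI against sham, 13.8% for FAPI against MI and 24.1% for FapKO against MI. For co-culture against 3D-culture it recovered 1.3%. Of 2-fold changes it recovered 66.7%, 66.1%, 71.6% and 38.7% in that order. Far larger shares of genes were called in the data, which loosens the adjusted threshold, so these rates do not give the power of the real comparisons. A subunit that did not pass may still differ. CPM are TMM-normalised. SE is approximated from the F statistic, and 95% intervals are normal approximations from it. Levels per kilobase divide CPM by the union of annotated exons. The precision is set by 18474138 to 37287355 counts a heart library and 4735337 to 15650221 a culture library. Ratios of subunits use log2 of counts with 0.5 added and exact permutation tests. Alternatives were RLE size factors, total-count scaling, other filters on low counts, DESeq2 1.42.0, limma-voom (limma 3.58.1), the replicate number as a block, only the groups compared, the log2 level of the cardiomyocyte markers as a covariate, a pseudocount of 2 for ratios, and each library left out. Python 3.11.15 (pandas 2.3.3, numpy 2.4.6, matplotlib 3.10.9) served for tables and plots.

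Replicates of a group differed by a chi-square of 3.35 to 198 per degree of freedom, so none were copies. The culture libraries are labelled biological replicates. All 10 subunits are described. From each other list the text names up to 4 genes per comparison with the smallest p, and for each subunit the 2 genes of nearest profile. The subunits and lists were chosen with earlier results of these data known.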

Additional observations from a re-analysis of the deposited data

Results flagged for a closer look

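Of 30 groups of 4 hearts tested for a single far value, 3 had one, where chance gives about 1 in 20, and all 3 were in FAPI hearts. Itga1 stood at 34.0 CPM in FAPI replicate 3, above 28.3 to 28.8 CPM in the other FAPI hearts. Itga5 stood at 28.6 CPM in FAPI replicate 1, below 32.4 to 33.2 CPM in the others, and still above every FapKO heart. Itgb3 stood at 3.76 CPM in FAPI replicate 1, above 2.30 to 2.51 CPM in the others, and this heart is the one FAPI heart that overlapped the MI hearts for Itgb3.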

How the results depend on the processing

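Over all alternatives, 1005 recomputed fold changes of the subunits kept their direction and their side of the threshold, 61 lost it, 25 gained it and 27 changed sign. Total-count scaling moved the median over all genes, on the log2 scale, to 1.23 in MI against sham, −0.44 in FAPI against MI, −0.63 in FapKO against MI, 0.16 in FAPI against FapKO, 0.77 in FAPI against sham, 0.59 in FapKO against sham and −0.41 in co-culture against 3D-culture. Higher calls made up 86.1%, 14.6%, 16.6%, 67.9%, 86.8%, 91.7% and 32.7% of calls in that order, in place of 53.7%, 60.1%, 49.1%, 53.5%, 52.4%, 48.7% and 50.7%. It gave 9933 genes and 7 subunits called in FAPI against MI (5081 and 4 with TMM) and 5 subunits in FAPI against FapKO (3 with TMM), as did DESeq2 (5). It reversed Itga7 against sham in MI (0.10), FAPI (0.40, now past the threshold) and FapKO hearts (0.23), Itgb1 in FAPI against MI (−0.25) and Itga5 in co-culture (−0.11). With the cardiomyocyte covariate 778, 27, 103, 1420, 5067 and 4407 genes were called for MI against sham, FAPI against MI, FapKO against MI, FAPI against FapKO, FAPI against sham and FapKO against sham, and 1, 0 and 0 subunits in the first 3. In that fit the sign turned for Itga7 against sham in MI (0.58), FAPI (0.36) and FapKO hearts (0.064); for FAPI against MI in Itga1 (0.027), Itga7 (−0.22), Itga8 (0.33), Itga11 (0.66), Itgav (0.18), Itgb1 (−0.0040), Itgb8 (0.81), Col1a2 (0.0071) and Flna (0.066); and for FapKO against MI in Itga1 (0.024), Itga7 (−0.51), Itga8 (0.21), Itga11 (0.37), Itgav (0.055), Itgb8 (0.81), Itgb2 (0.10) and Thbs1 (0.039). In comparisons with MI or sham hearts the covariate follows the groups closely, which limits what can be compared within them. Summed cardiomyocyte markers of FAPI and FapKO hearts overlapped (51663 to 91301 and 75989 to 92467 CPM), so this does not hold for that pair. The cause of other changes was not tested. Leaving out 1 library gave 2 to 5 subunits called in FAPI against MI (lowest without MI replicate 1, MI replicate 2 or FAPI replicate 4), 4 to 8 in FapKO against sham (lowest without sham replicate 1), 3359 to 5495 genes in FAPI against MI (lowest without FAPI replicate 4) and 1125 to 2920 in FAPI against FapKO, with 1352, 1197, 1430 and 1125 without FAPI replicate 1, FAPI replicate 3, FapKO replicate 1 and FapKO replicate 3. The sign turned in FAPI against FapKO for Itga7 (−0.040 to 0.14 over the libraries left out, below 0 without FAPI replicate 2 or 4) and Itga1 (−0.036 to 0.063, below 0 without FAPI replicate 3), in co-culture for Itga1 (−0.23 to 0.079, above 0 without co-culture replicate 3 or 3D-culture replicate 3), Itga11 (−0.35 to 0.11, above 0 without 3D-culture replicate 2) and Itgav over Itgb1 (−0.41 to 0.31, above 0 without co-culture replicate 2 or 3D-culture replicate 2), and for Itgb8 over Itgav in FAPI against MI (−0.049 to 0.26, below 0 without FAPI replicate 1 or 3). Itga7 was not tested in 2 of the culture fits with a library left out. Samples share only a replicate number: same-numbered libraries correlated between −0.39 and 0.38. With the number as a block, 10, 4, 7, 4, 9, 7 and 5 subunits and 11687, 4968, 8630, 2035, 9395, 6662 and 6862 genes were called in MI against sham, FAPI against MI, FapKO against MI, FAPI against FapKO, FAPI against sham, FapKO against sham and co-culture against 3D-culture, Itgav in co-culture was not past the threshold (−0.82), and 3 adhesion complex genes passed in FAPI against FapKO in place of 6. Depth limits Itga8, Itgb3 and Itgb8 in sham hearts and Itga7 and Itgb8 in co-culture, with under 20 counts a library.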
